A study of Mus musculus with 31 samples.

Results

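Female mammalian cells silence 1 X chromosome, and the 59 genes described here are those on the first 60 Mb of the mouse X for which reads could be told apart between the parental chromosomes. They were taken from the authors' table of 205 allele-resolved X genes by a start below 60 Mb on mm10, after 13 named genes were left out, of which 7 are in the table. The 59 genes run from a start at 6400032 to an end at 57393036 on chromosome X. RNA was sequenced from differentiated dermal fibroblasts of female CAST/Ei x 129/Sv/Jae hybrid mice in 3 groups of 2 biological replicates. WT cells carried no deletion, by their label. Cells labelled XaWT XiΔXist (line 1) and a second cell line with that label (line 2) carried a deletion of Xist on the inactive X only. The labels name no agent for these RNA libraries. The sources used here do not say whether each line is 1 clone or how old the animals were, so an effect of the deletion and a difference between lines of cells cannot be told apart within 1 line. The question the comparison addresses is whether genes of the inactive X are expressed again once Xist is removed in cells that had already silenced it.

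Xist is the long noncoding RNA that spreads over the inactive X and recruits silencing complexes. In differentiated cells silencing is held by several layers, including DNA methylation and histone marks, and some genes, called escapees, are transcribed from the inactive X although it is silenced. In a hybrid whose cells all silence the same X, reads over differing bases separate the active from the inactive copy. Here cas reads, of the CAST/Ei X, were the many and mus reads, of the other X, the few. The mus share is the mus reads as a percentage of the cas and mus reads of a gene. Levels are in CPM, counts per 1 M of the library's counts after TMM scaling, and changes in log2 of these.

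Xist had 429 and 633 CPM in WT and 0.273 to 1.08 CPM in the 4 libraries of the lines. The libraries held 3.81 to 7.07 M counts over exons, and replicate 1 of each group was the shallower. Fibroblast markers were high in all groups, with a summed level of 5223 to 6384 CPM in WT, 4406 to 7029 in line 1 and 5177 to 6475 in line 2, and 10, 10 and 9 of the 10 reached 1 CPM. The 10 keratinocyte markers summed to 78.6 and 101.5 CPM in WT, with 10.1 and 11.4 for line 1 and 33.4 and 34.5 for line 2, with Krt1 at 0 in every library, and 4, 1 and 4 of them reached 1 CPM. The 9 leukocyte markers in the table summed to 18.6 to 19.7 CPM in WT, 28.9 to 30.3 in line 1 and 27.1 to 29.9 in line 2, with 3, 4 and 4 reaching 1 CPM. The 8 endothelial markers summed to 10.7 to 12.6, 3.78 to 3.82 and 6.35 to 7.03 CPM, with 2, 1 and 1 reaching it. Their part in the changes of line 1 given below was not tested.

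The authors classed 52 of the 59 genes Monoallelic and 7 Biallelic, and each gene had the same class in all 4 class columns of the table. Of the 52 Monoallelic genes, 44 had a mus share below 5% in WT, 45 in line 1 and 47 in line 2, with both libraries pooled, and the highest shares were 10.1%, 11.5% and 10.0%. In the 7 Biallelic genes the share of single libraries ran from 22.6% to 70.4%. The ranges of the classes did not overlap in any library, where the highest Monoallelic share was between 10.5% and 14.3%. How the classes were set was not found in the sources used here and may rest on these reads, so the gap is a description.

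**Figure D1:**
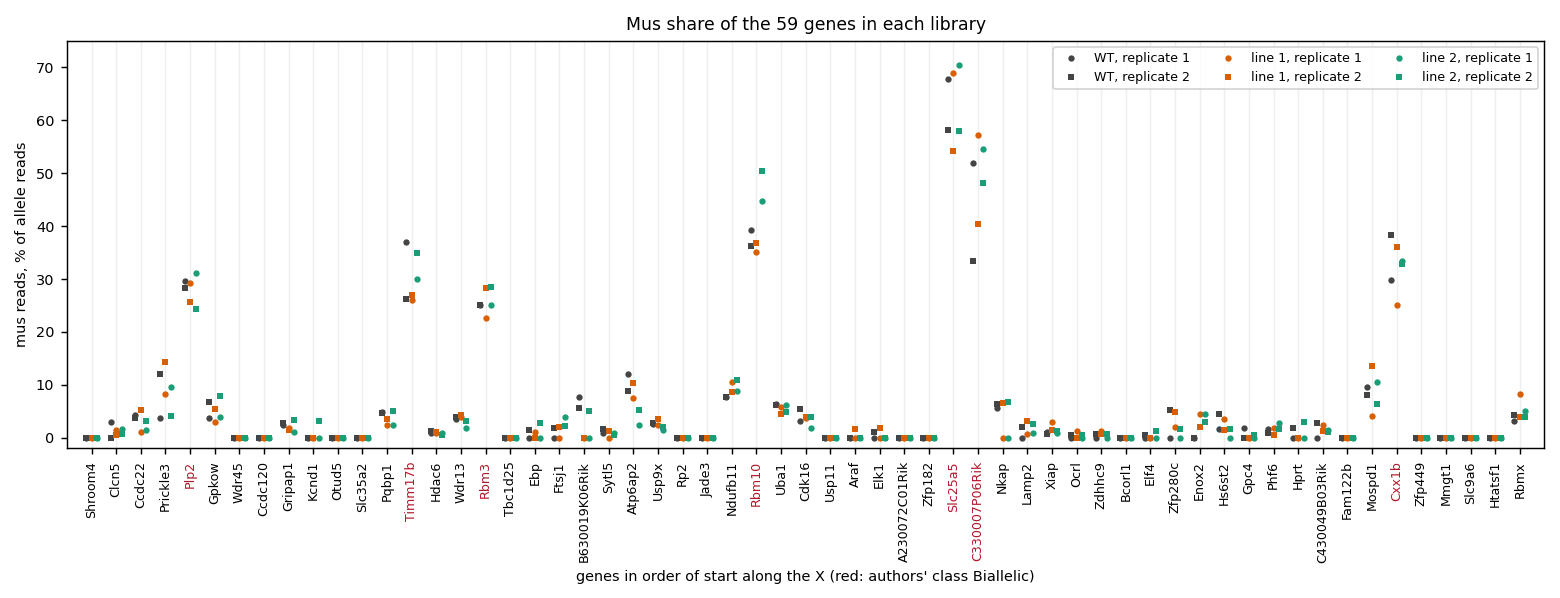
Mus share (percent of allele reads, y axis) of each of the 59 genes, in order of start along the X (x axis), in the 6 libraries. Circles are replicate 1, squares replicate 2, colours are groups. The 7 genes with red names sit between 22.6% and 70.4%, and the other 52 lie at or below 14.3% in every library.

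The pooled mus share of the 52 Monoallelic genes ran from 1.77% to 2.68% over the libraries. Each class column covers a WT library and a deleted library of the same number. A low share in the lines may thus be part of how these genes were classed, so the values are a description. Summed over the 52 Monoallelic genes, mus reads made up 2.27% (72 of 3166 allele reads; 95% Wilson interval 1.81% to 2.85%) and 2.68% (131 of 4881; 2.27% to 3.18%) in the WT libraries. The line 1 libraries had 2.27% (67 of 2950; 1.79% to 2.87%) and 2.52% (150 of 5942; 2.16% to 2.95%). In line 2 the values were 1.77% (58 of 3272; 1.37% to 2.28%) and 2.35% (129 of 5494; 1.98% to 2.78%). The intervals cover counting error only, since reads were not tagged as molecules, and those of all groups overlap. Group means were 2.48% ± 0.290 for WT, 2.40% ± 0.179 for line 1 and 2.06% ± 0.407 for line 2 (SD, n = 2). Line 1 and WT differed by less than either SD, while line 2 was below WT by a little more than either, in both replicate numbers, and this pooled difference was not tested. The 7 Biallelic genes had 42.3% ± 1.79, 40.1% ± 1.28 and 45.9% ± 2.96 in the same order, and in these pooled reads the line 2 libraries, at 48.0% and 43.8%, lay above the other 4. With the 7 genes weighted equally line 2 had 41.3% and 39.6%. WT then had 40.1% and 35.1% and line 1 37.7% and 35.5%, so line 2 and WT overlapped. All 59 together had 6.41% ± 0.0142, 6.39% ± 0.40 and 6.55% ± 0.0325. The median gene of the 43 with at least 20 allele reads in every library, the 7 Biallelic ones included, had 1.88% and 2.80% in WT. It had 1.82% and 1.97% for line 1 and 1.41% and 2.53% for line 2. Over the 36 Monoallelic genes among them the median was 0.985% and 1.88% in WT. For line 1 it was 1.35% and 1.52%, and for line 2 0.930% and 1.65%.

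Gene by gene, no change of the mus share was called. The test asked in edgeR whether the odds of a mus read differed between groups, over 160 X genes with a mus read and at least 10 allele reads, 42 of them among the 59, while the other 17 had no mus read to test. Of these 42 genes 0 were called in line 1 against WT (1.88% of all genes tested were called), 0 in line 2 against WT (0.0% of all) and 0 between the lines (1.88% of all). At an unadjusted p under 0.05 the counts were 0, 0 and 1, and the 1 was Rbm10. The median SE of the log2 odds ratio was 0.99 in line 1, so for a gene of usual depth a change of the odds by under 2 SE was not detectable. Adjustment over the 160 genes sets the limit higher, as Rbm10 at 0.74 (SE 0.35) between the lines was not called. The X genes called in line 1 outside the 59 were Msn, Sh3kbp1 and Med14. Med14 starts under 60 Mb too and is among the 7 genes left out by name there. The median log2 odds ratio of the 42 was -0.14 in line 1 and -0.10 in line 2, beside 0.02 and -0.04 over the 160. On the scale of the share itself, the 52 Monoallelic genes differed from WT by -6.45 to 3.06 percentage points in line 1 and by -5.79 to 3.57 in line 2, with a median of 0 in each. These ends rest on few mus reads. In line 1 they were B630019K06Rik (2 of 31 allele reads in WT, 0 of 47 in line 1) and Prickle3 (5 of 59, 9 of 78). In line 2 they were Atp6ap2 (15 of 149 in WT, 5 of 117 in line 2) and Enox2 (0 of 41, 2 of 56).

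**Figure D2:**
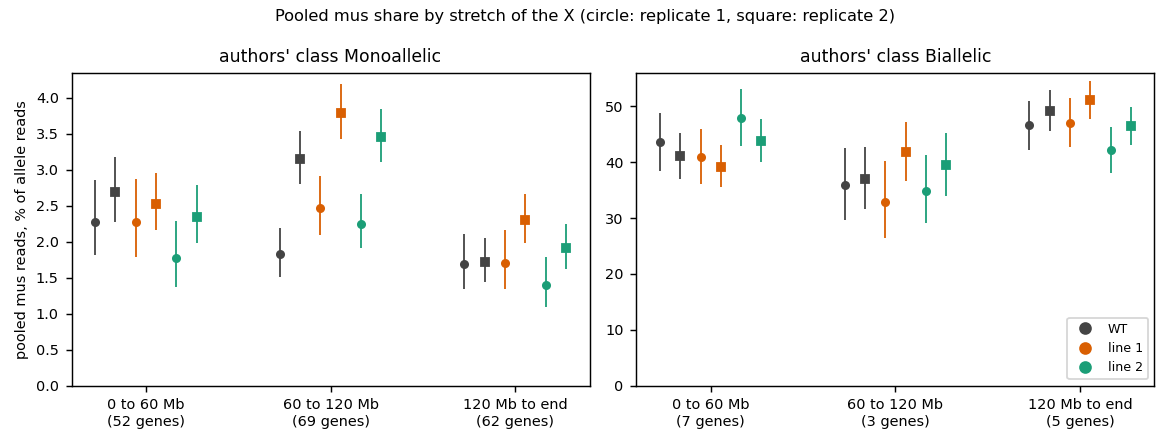
Pooled mus share (percent of allele reads, y axis, from 0) by stretch of the X, for genes classed Monoallelic (left) and Biallelic (right); each point is 1 library and bars are 95% Wilson intervals. In the first stretch the Monoallelic points lie between 1.77% and 2.68%, with the groups interleaved.

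The levels on the rest of the allele-resolved X are given as values without a test. The 69 Monoallelic genes from 60 to 120 Mb had a pooled share of 2.49% ± 0.938 for WT, 3.13% ± 0.933 for line 1 and 2.85% ± 0.848 for line 2, and the 62 from 120 Mb on had 1.70% ± 0.0215, 2.00% ± 0.419 and 1.65% ± 0.362. Line 1 was above WT within each replicate number from 60 to 120 Mb, at 2.47% against 1.82% in replicate 1 and 3.79% against 3.15% in replicate 2. From 120 Mb on it was 1.70% against 1.69% and 2.30% against 1.72%. The first stretch did not show this in pooled reads, with 2.27% against 2.27% and 2.52% against 2.68%. Medians were taken over Monoallelic genes with at least 20 allele reads in every library. From 60 to 120 Mb they were 0% and 1.23% in WT and 0% and 1.32% in line 1. From 120 Mb on line 1 was lower, with 0% and 0.987% against 1.318% and 1.204% in WT. The pooled values thus do not show a gain of the usual gene in either stretch. Of the genes called in line 1 above, Msn lies from 60 to 120 Mb and Sh3kbp1 from 120 Mb on. Of the 7 genes left out under 60 Mb, 4 are classed Biallelic, and their pooled share was 36.0% ± 1.38 for WT, 47.8% ± 1.97 for line 1 and 38.5% ± 0.909 for line 2.

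Most mus reads of the 59 genes came from the 7 Biallelic ones, and Slc25a5 gave more than any other gene, with 556 mus reads over the 6 libraries. It encodes the adenine nucleotide translocator ANT2, which exchanges ADP and ATP across the inner mitochondrial membrane. Its mus share was 67.7% and 58.2% in WT, with 68.8% and 54.1% for line 1 and 70.4% and 58.0% for line 2. In each group the first library was the higher, and the groups overlap. The gene has near-identical processed copies elsewhere in the genome, and reads of such copies cannot be told apart here, so a share above 50% is uncertain as a measure of the inactive X. C330007P06Rik, the neighbour of Slc25a5 in the order of genes, had 52.0% and 33.3% in WT, with 57.1% and 40.3% for line 1 and 54.5% and 48.1% for line 2. Again the first library was the higher in each group, on 25 to 62 allele reads.

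Rbm10, a regulator of splicing, had 39.3% and 36.1% in WT, with 35.1% and 36.8% for line 1 and 44.6% and 50.5% for line 2. Both line 2 libraries were above the other 4, and the difference from line 1 had an unadjusted p = 0.0355 and an adjusted p of 1 in edgeR. Plp2, a membrane protein of endosomes and the cell surface, had 29.6% and 28.2%, 29.3% and 25.6%, and 31.1% and 24.3% in the groups in that order. Timm17b, a subunit of the TIM23 translocase that imports proteins into mitochondria, had 37.0% and 26.3%, 26.1% and 27.0%, and 30.0% and 34.9%, on 20 to 43 allele reads. Rbm3, an RNA-binding protein induced by cold, had 25% in both WT libraries, 22.6% and 28.3% in line 1 and 25% and 28.6% in line 2. Cxx1b, derived from a retrotransposon gag gene and close in sequence to its neighbours Cxx1a and Cxx1c, had 29.8% and 38.3%, 25% and 36.0%, and 33.3% and 32.8%, and its reads may be shared with those copies. In Plp2, Rbm3 and Cxx1b the 3 groups overlapped, and in Timm17b both line 2 libraries lay above both of line 1, with WT spanning them.

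A further 9 genes classed Monoallelic had a share above 5% in at least 1 group. Over all 6 libraries pooled, Ndufb11, a subunit of respiratory complex I, had 9.11% (58 of 637 allele reads; 7.11% to 11.6%). Mospd1, a membrane protein with a major sperm protein domain, had 9.09% (16 of 176; 5.67% to 14.3%). Prickle3 had 8.76% (19 of 217; 5.68% to 13.3%). Atp6ap2, the accessory protein of the vacuolar proton pump also known as the prorenin receptor, had 8.35% (39 of 467; 6.17% to 11.2%). Uba1, the E1 enzyme that activates ubiquitin for most of the pathway, had 5.57% (113 of 2028; 4.66% to 6.66%). The rest were Gpkow, Nkap, Rbmx and B630019K06Rik, with 5.51%, 5.32%, 4.53% and 2.94%. B630019K06Rik was above 5% in WT only, on 2 of 31 allele reads.

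The lowest difference from WT among the 52 genes in line 2, -5.79 percentage points, was that of Atp6ap2. It had 12.1% and 8.79% in WT, with 7.46% and 10.4% for line 1 and 2.50% and 5.19% for line 2, the last resting on 1 and 4 mus reads. The line 2 libraries were below the others, and the log2 odds ratio of -1.28 (SE 0.78) was not called, with an adjusted p of 1 in edgeR. Uba1 was the deepest of all, with 258 to 419 allele reads a library, and its share was 6.45% and 6.12% in WT, with 5.81% and 4.53% for line 1 and 6.23% and 4.91% for line 2. Its log2 odds ratio was -0.32 (SE 0.40) in line 1 and -0.20 (SE 0.39) in line 2.

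At the other end, 17 genes had 0 mus reads in all 6 libraries after rounding. The deepest was Mmgt1, a subunit of the complex that inserts proteins into the membrane of the endoplasmic reticulum, with 0 of 769 allele reads, which allows a share of up to 0.390%. Htatsf1, a splicing factor, had 0 of 659 (up to 0.455%), Shroom4, an actin-binding organiser of the cytoskeleton, 0 of 536 (up to 0.560%), and Usp11, a deubiquitinase, 0 of 365 (up to 0.822%). Tbc1d25, a GTPase-activating protein for Rab proteins, had 0 of 275 (up to 1.09%) and the zinc finger gene Zfp182 0 of 210 (up to 1.43%). The limits rest on 3 counts. In the other 11 of the 17 the total ran down to 82 allele reads.

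Genes of the low and the high class lay side by side. Pqbp1, which binds polyglutamine and takes part in splicing, and Timm17b are read in opposite directions from starts 67 bases apart. Pqbp1 (X:7894519-7899269, minus strand) had a mus share of 2.44% to 5.00% over the 6 libraries, and Timm17b (X:7899336-7907652, plus strand) 26.1% to 37.0%. A single accessible site that the authors classed Monoallelic (X:7898936-7899607) covers both starts. The 66 bases between the starts are shown, because they lie before both genes, on the plus strand, with matches to CCAAT in capitals (RefSeq, GRCm38.p6, X:7899270-7899335).

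Pqbp1 and Timm17b: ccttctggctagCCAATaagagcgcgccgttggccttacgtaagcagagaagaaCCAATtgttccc

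The stretch holds CCAAT 2 times, and at least 2 matches on either strand are found in 1.38% of the 32851 RefSeq promoters over the same number of bases before the start. Ndufb11 (X:20615326-20617564, minus strand) and Rbm10 (X:20617503-20650905, plus strand) overlap head to head by 62 bases, with 7.69% to 10.9% and 35.1% to 50.5% mus reads. Prickle3 (X:7657379-7668186, plus strand) and Plp2 (X:7667941-7671390, minus strand) overlap by 246 bases at their ends, with 3.85% to 14.3% and 24.3% to 31.1%. The kit kept strand, but the sources used here do not say whether counting used it, so reads of the overlaps may be mixed between the genes of these last 2 pairs.

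Total RNA, from both alleles together, was the second measurement, and all 59 genes were tested among 12910. In line 1 against WT 4 genes were called by edgeR, Ccdc22 and Usp11 higher and Gpc4 and Hs6st2 lower (14.3% of all genes tested were called, 871 higher and 975 lower). In line 2 against WT 0 were called by edgeR, 3 had an unadjusted p under 0.05, and DESeq2 called 0 (3.58% of all called by edgeR). Between the lines 5 were called, Gpc4 and Hs6st2 higher in line 2, and Usp11, Ccdc22 and Atp6ap2 lower (12.6% of all). The share of the 59 called, 6.78% in line 1 and 8.47% between the lines, was thus below that of all genes in each comparison. The median log2 fold change of the 59 was 0.11 in line 1 and -0.02 in line 2, beside 0.01 in each over all genes tested. Changes of under 0.5 were seen in 52 of 59 genes in line 1 and in 58 in line 2, and the median SE was 0.20. Among 68 other X genes under 60 Mb that have no allele values here, 8 were higher and 6 lower in line 1, with a median of 0.06, and 2 and 1 in line 2, with a median of -0.08.

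With the replicate number as a block, 9 of the 59 were called in line 1, 6 higher and 3 lower (32.4% of all genes). They were the 4 named above with Prickle3, Ccdc120, Ebp and Enox2 higher and Htatsf1 lower, at log2 fold changes of 0.53, 0.45, 0.42, 0.49 and -0.36. In line 2 the count with the block was 0 (12.1% of all). Between the lines it was 11 (27.2% of all), adding Elf4, C430049B03Rik and Zfp449 higher in line 2 and Tbc1d25, Ebp and Bcorl1 lower.

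Gpc4 and Hs6st2, which lie next to each other among the 59, fell together in line 1. The products of both are linked to heparan sulfate, the sugar chain that binds growth factors at the cell surface. Gpc4 (X:52053018-52164923, minus strand) is a glypican, a cell-surface protein that carries such chains. It had 203 and 144 CPM in WT, with 57.3 and 31.9 for line 1 and 161 and 124 for line 2, so that both line 1 libraries lay below the other 4. Means were 174 ± 42.1, 44.6 ± 17.9 and 143 ± 25.8 CPM (SD, n = 2). Against WT, the log2 change was -1.98 (SE 0.32, edgeR adjusted p = 0.0112) for line 1 against -0.28 (SE 0.30, adjusted p = 0.812) for line 2, and line 2 minus line 1 was 1.70 (SE 0.32, adjusted p = 0.0197). Without WT replicate 1 the line 1 value was -1.72 (adjusted p = 0.0527), and without line 2 replicate 1 or 2 the difference between the lines was 1.51 (adjusted p = 0.0955) or 1.86 (adjusted p = 0.0559), which are not called.

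Hs6st2 (X:51386637-51681602, minus strand) encodes a sulfotransferase that adds sulfate to the 6-O position of heparan sulfate. It had 212 and 225 CPM in WT, with 120 and 112 for line 1 and 226 and 229 for line 2. Line 1 again lay below the others, and replicates differed little, with 219 ± 9.14, 116 ± 5.44 and 228 ± 2.45 CPM. Against WT, the log2 change was -0.91 (SE 0.11, edgeR adjusted p = 0.0036) for line 1 against 0.06 (SE 0.11, adjusted p = 0.916) for line 2, and the difference between the lines was 0.97 (SE 0.11, adjusted p = 0.00325).

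Usp11 (X:20703909-20720539, plus strand), the deubiquitinase already named for its 0 mus reads, rose in line 1. It had 18.9 and 19.4 CPM in WT, with 80.6 and 54.5 for line 1 and 15.5 and 12.8 for line 2. The line 1 libraries stood apart above the others, at 67.5 ± 18.5 CPM against 19.2 ± 0.293 in WT and 14.2 ± 1.89 in line 2. Against WT, the log2 change was 1.81 (SE 0.24, edgeR adjusted p = 0.00564) for line 1 against -0.45 (SE 0.25, adjusted p = 0.528) for line 2, and line 2 minus line 1 was -2.25 (SE 0.25, adjusted p = 0.00313). The calls on Usp11 and Hs6st2 held without any 1 library.

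**Figure D3:**
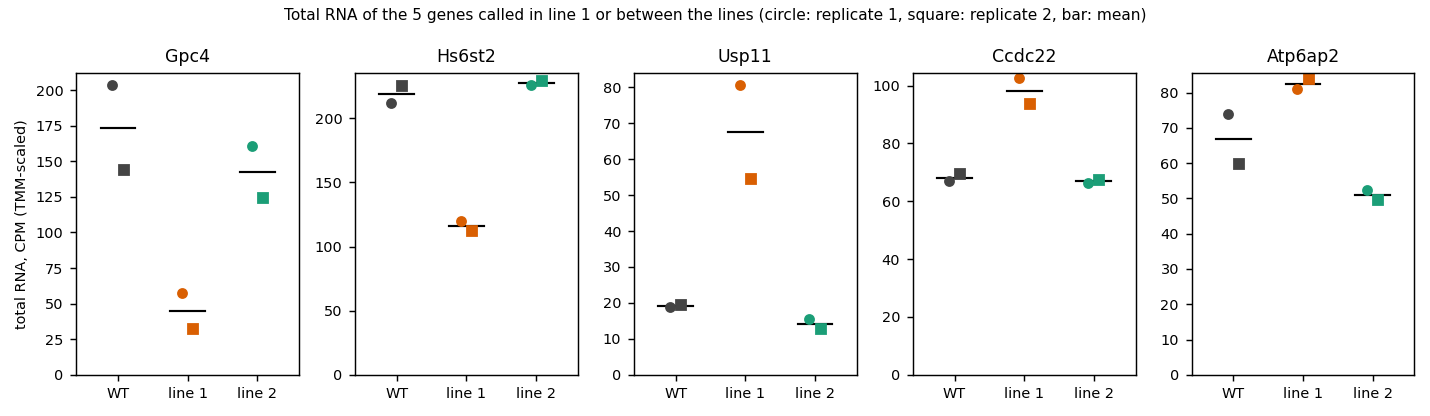
Total RNA (CPM, y axis, from 0) of the 5 genes called in line 1 or between the lines, in each library; bars are group means. Gpc4 and Hs6st2 are lowest and Usp11 and Ccdc22 highest in both line 1 libraries, and for Atp6ap2 WT lies between line 1 and line 2.

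The allele reads of these 3 genes moved with the total. Cas reads of Gpc4 were 157 and 161 in WT, with 43 and 44 for line 1 and 127 and 175 for line 2. Those of Hs6st2 were 59 and 107 in WT, with 27 and 66 for line 1 and 63 and 118 for line 2. For Usp11 they were 25 and 53 in WT, with 101 and 130 for line 1 and 21 and 35 for line 2, and its mus reads stayed at 0. Each group's second library is the deeper, so raw reads are to be compared within a replicate number. In a test of cas reads alone over the 205 genes, added after the data were seen, 3 of the 59 were called in line 1 (3.9% of the 205), which were Usp11 at 1.54 (SE 0.26, adjusted p = 0.0258), Hs6st2 at -0.95 (SE 0.19, adjusted p = 0.037) and Gpc4 at -1.96 (SE 0.35, adjusted p = 0.0258). In line 2 it called 0, with 1 of the 59 at an unadjusted p under 0.05 (0.488% of the 205 called), and between the lines the same 3 genes (3.9% of the 205). With the replicate number as a block the last count was 6, with Atp6ap2, Ebp and Bcorl1 added (14.1% of the 205). The change of Usp11, Gpc4 and Hs6st2 was thus measured on the reads of the allele that is expressed in WT.

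The 250 bases before the starts of the 3 genes are shown because their total RNA and their cas reads changed in line 1. They are written 5′ to 3′ along the strand of each gene (RefSeq, GRCm38.p6), with capitals for matches on either strand to the CCAAT motif bound by NF-Y, to the GC box GGGCGG bound by Sp1 and to the TATA box, here TATAAA. No match overlaps another.

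Gpc4 (X:52164924-52165173, minus strand): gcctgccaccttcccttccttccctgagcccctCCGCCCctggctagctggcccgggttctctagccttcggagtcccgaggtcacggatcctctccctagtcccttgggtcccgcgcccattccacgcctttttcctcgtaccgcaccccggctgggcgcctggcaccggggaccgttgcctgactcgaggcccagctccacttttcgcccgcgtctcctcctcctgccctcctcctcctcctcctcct

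Hs6st2 (X:51681603-51681852, minus strand): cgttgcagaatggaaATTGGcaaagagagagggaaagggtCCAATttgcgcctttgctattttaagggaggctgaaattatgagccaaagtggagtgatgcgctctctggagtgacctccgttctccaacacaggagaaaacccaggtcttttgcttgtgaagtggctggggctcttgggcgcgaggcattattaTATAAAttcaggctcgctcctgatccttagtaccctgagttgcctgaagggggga

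Usp11 (X:20703659-20703908, plus strand): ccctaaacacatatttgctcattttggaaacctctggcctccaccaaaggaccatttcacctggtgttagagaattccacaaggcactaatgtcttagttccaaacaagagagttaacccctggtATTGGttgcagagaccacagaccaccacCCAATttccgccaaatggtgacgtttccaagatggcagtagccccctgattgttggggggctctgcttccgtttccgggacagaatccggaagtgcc

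Gpc4 had 1 match to GGGCGG and 18 CG dinucleotides, Hs6st2 2 matches to CCAAT, 1 to TATAAA and 7 CG, and Usp11 2 matches to CCAAT and 5 CG. Over the same 250 bases of all 32851 promoters, 33.8% held CCAAT, 32.7% GGGCGG and 12.4% TATAAA, and the median number of CG was 6. No accessible site of the authors' lists lay within 10 kb of the start of Gpc4, Hs6st2 or Usp11 or inside these genes. BRG1 sites classed Monoallelic numbered 5 at Gpc4, 8 at Hs6st2 and 1 at Usp11, the last 840 bases from the start. BRG1 is the ATPase of the SWI/SNF remodeler, and the lists give coordinates with no score.

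Ccdc22 and Atp6ap2, both of endosomes and lysosomes, were called at smaller changes, the second between the lines only. Ccdc22 (X:7593809-7605420, minus strand), a subunit of the CCC complex that recycles receptors from endosomes, had 67.0 and 69.3 CPM in WT, with 102 and 93.5 for line 1 and 66.4 and 67.4 for line 2. Both line 1 libraries were above the other 4. Against WT, the log2 change was 0.52 (SE 0.12, edgeR adjusted p = 0.0342) for line 1 against -0.03 (SE 0.12, adjusted p = 0.98) for line 2, and -0.55 (SE 0.12, adjusted p = 0.032) between the lines. The line 1 call was lost with DESeq2 (0.52, adjusted p = 0.0718), with no filter on low counts (adjusted p = 0.0653), with the 2 compared groups alone (adjusted p = 0.0999) and without WT replicate 1 or 2, line 1 replicate 1 or either line 2 library, at 0.45 to 0.56 with adjusted p of 0.057 to 0.24. The call between the lines was lost under the same settings, at -0.57 to -0.48 with adjusted p of 0.0537 to 0.232. Atp6ap2 (X:12587759-12617051, plus strand), named after its values were seen, had 74.0 and 59.8 CPM in WT, with 81.1 and 83.8 for line 1 and 52.3 and 49.5 for line 2. WT lay between the lines, and line 2 minus line 1 was -0.70 (SE 0.15, adjusted p = 0.0303). That call was lost without any 1 library other than line 1 replicate 1, at -0.73 to -0.67 with adjusted p of 0.05 to 0.212, and with the 2 compared groups alone (adjusted p = 0.0522).

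By role, the 59 genes were sorted into 8 lists, which hold 49 of them. The lists were chosen with earlier results of these data known, so counts of calls in a list are a description. In the ubiquitin list, 2 of 6 genes rose in line 1, Usp11 and Ccdc22 (14.3% of all genes were called in either direction), and 0 were called in line 2 (3.58% of all), with medians of 0.14 and -0.06. The call on Ccdc22 was lost under the settings given above. Usp9x, a deubiquitinase, was at 344 and 341 CPM in WT, with 313 and 415 for line 1 and 351 and 336 for line 2. Xiap, an inhibitor of caspases, had 117 and 134 CPM in WT, with 126 and 155 for line 1 and 133 and 132 for line 2, and Uba1 had 444 and 391, 445 and 348, and 436 and 350. In Usp9x, Xiap and Uba1 the groups overlapped. In the list of glycan, lipid and nucleotide genes, 2 of 6 fell in line 1, Gpc4 and Hs6st2 (14.3% of all genes called in either direction), and 0 were called in line 2 (3.58% of all), with medians of -0.17 and -0.13. Zdhhc9, a palmitoyltransferase, had 74.5 and 72.8, 81.4 and 68.6, and 63.2 and 69.2 CPM.

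The 12 genes of vesicle traffic and lysosomes had a median of 0.21 in line 1 and -0.03 in line 2. In the main fit Ccdc22 alone was called in line 1 (14.3% of all genes) and 0 in line 2 (3.58% of all). The Ccdc22 call was lost under the settings given above. Lamp2, the lysosomal membrane protein, was at 219 and 197 CPM in WT, with 231 and 186 for line 1 and 208 and 185 for line 2, Ocrl, an inositol phosphatase, at 84.4 and 102, 75.7 and 116, and 94.7 and 113, and Clcn5, an endosomal chloride-proton exchanger, at 72.8 and 81.9, 69.2 and 102, and 68.1 and 81.9. In each of these 3 the groups overlap and the replicate number moved the level in the same direction in every group. None of the 11 transcription and chromatin genes was called in line 1 (14.3% of all genes) or line 2 (3.58% of all). Their changes ranged from -0.31 to 0.21 in line 1 (median 0.06) and from -0.43 to 0.32 in line 2. Elf4, an ETS factor, had 130 and 140 CPM in WT, with 108 and 140 for line 1 and 150 and 174 for line 2, with line 2 highest and no call. Elk1, another ETS factor and target of MAP kinases, had 93.5 and 87.1, 114 and 88.8, and 85.0 and 89.5. Wdr13 had 100.3 and 100.5, 93.3 and 101, and 82.6 and 83.3, with line 2 below the other 4 libraries and no call (log2 fold change -0.27, SE 0.11, edgeR adjusted p = 0.333).

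In the main fit the remaining lists held no call in line 1 (14.3% of all genes) or line 2 (3.58% of all). For the 8 RNA processing and translation genes the medians were 0.10 in line 1 and -0.04 in line 2, with Rbm10 at 86.4 and 80.6, 90.3 and 89.9, and 81.2 and 79.7 CPM. Gpkow, a spliceosomal G-patch protein, had 81.1 and 84.5, 82.7 and 84.8, and 80.0 and 81.8 CPM, and Htatsf1 81.6 and 99.9, 58.4 and 83.0, and 73.9 and 92.6. Htatsf1 was lower in line 1 than in WT within each replicate number. Of the 3 mitochondrial genes, Slc25a5 had 100.3 and 97.9, 87.9 and 104.7, and 101.8 and 97.0 CPM, Ndufb11 58.1 and 56.3, 59.5 and 44.4, and 58.9 and 55.4, and Timm17b 47.8 and 43.2, 53.0 and 38.2, and 45.5 and 44.1, with overlapping groups. Among 4 signalling and cytoskeleton genes, Cdk16, a cyclin-dependent kinase, had 356 and 303, 322 and 256, and 305 and 279 CPM, Araf, a Raf kinase, 81.6 and 84.5, 96.2 and 89.0, and 91.6 and 86.4, and Shroom4 55.1 and 63.2, 48.7 and 69.9, and 66.4 and 66.7. Cxx1b, alone in its list, had a log2 fold change of -0.22 in line 1 and -0.28 in line 2. The 10 genes in no list, among them Mmgt1, had no call in either line in the main fit. With the replicate block Ccdc120, also in no list, was called higher in line 1, as given above.

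**Figure D4:**
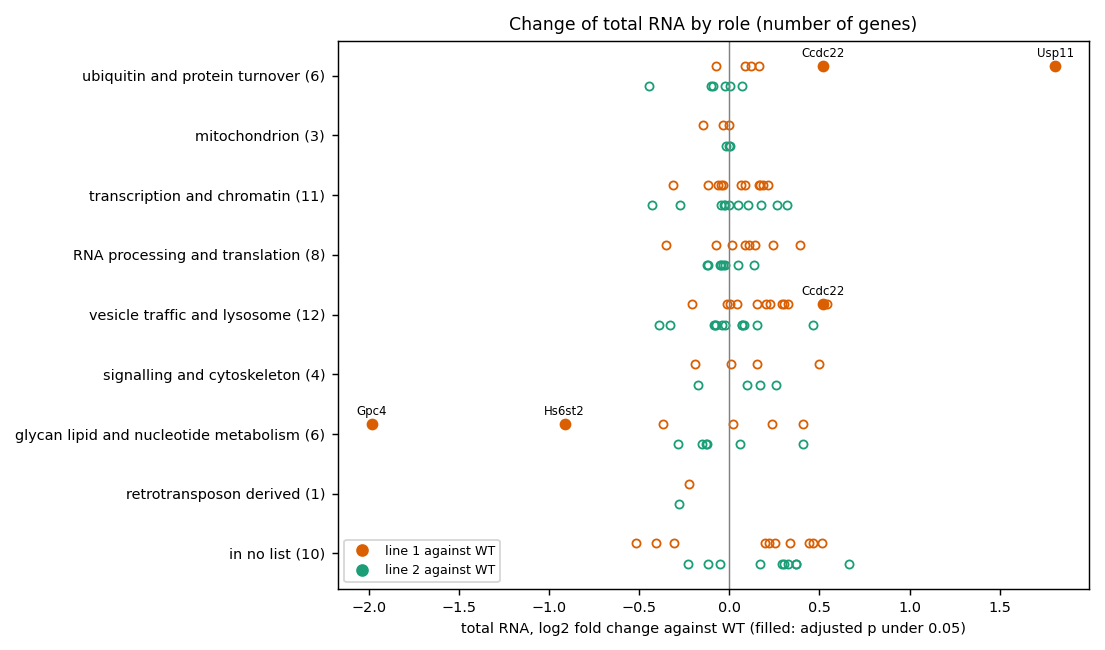
Log2 fold change of total RNA against WT (x axis) for each gene, by role list (y axis, number of genes in brackets), in line 1 and line 2; filled points have an adjusted p under 0.05. Ccdc22 stands in 2 lists, and so does Nkap. Filled points are 4 genes of line 1, from -1.98 to 1.81, and none of line 2.

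Levels per kilobase of transcript, averaged over the libraries, ran from 2.62 to 98.8 CPM per kb, with a median of 20.1. Uba1 with 98.8 and Cdk16 with 97.6 were the highest, followed by Slc25a5 with 75.9, Pqbp1 with 66.1 and Ndufb11 with 65.1. The lowest was Zfp182 with 2.62. High and low mus shares were found at high and at low levels: the Biallelic genes ran from 6.61 CPM per kb in Rbm3 to 75.9 in Slc25a5.

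The authors also deposited lists of accessible sites and of BRG1 sites on the X, in the classes Monoallelic, Biallelic and XiRestored, and few of the 59 genes had a site of the last 2. The lists class sites in WT and line 1, so they give no class for line 2. The rule behind the classes was not found in the sources used here. With a window of 10 kb around the start or a site inside the gene, 36 of 59 genes had an accessible site classed Monoallelic, 1 had one classed Biallelic (Nkap) and 0 had one classed XiRestored. Of the other 146 allele-resolved genes, 63.7% had a Monoallelic, 4.79% a Biallelic and 4.11% an XiRestored accessible site, beside 61.0%, 1.69% and 0% here. For BRG1, 27 genes had a Monoallelic site, 1 a Biallelic and 1 an XiRestored, and both of the last are Usp9x. In percent these are 45.8%, 1.69% and 1.69%, beside 47.3%, 4.11% and 9.59% of the other 146. The 146 include the 7 genes left out by name under 60 Mb, so these percentages depend on that choice. The differences were not tested. The first 60 Mb hold 9 of the 37 XiRestored accessible sites and 49 of the 189 XiRestored BRG1 sites of the lists.

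In Usp9x (X:13071498-13173327, plus strand) the XiRestored BRG1 site (X:13133785-13134466), classed in WT and line 1 and not in line 2, lies inside the gene, 62287 bases from the start. The nearest XiRestored BRG1 site to the start is 28.0 kb away and the nearest XiRestored accessible site 48.2 kb away. Its start itself is covered by a Monoallelic accessible site (X:13070641-13071518). The mus share was 2.69% and 2.74% in WT, with 2.48% and 3.47% for line 1 and 1.51% and 2.15% for line 2, on 161 to 403 allele reads. Line 1 straddled WT and line 2 lay below it, and the log2 odds ratio of 0.22 (SE 0.53) in line 1 and of -0.52 (SE 0.60) in line 2 was not called by edgeR.

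None of the 7 genes with a Biallelic RNA class had a Biallelic or XiRestored site. Timm17b and Cxx1b had a Monoallelic accessible site over their start, Rbm3 had one 11 bases and Plp2 one 550 bases from it. Rbm10, Slc25a5 and C330007P06Rik had no listed site within 10 kb of the start or inside the gene. In all, 21 of the 59 genes had a Monoallelic accessible site over their start.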

How the data were processed

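RNA was measured in 6 libraries of female dermal fibroblasts (WT, line 1, line 2; 2 each), grouped by their labels. Exon values per transcript are expected counts that the authors deposited without normalization, per the file headers. Allele values of X genes are expected counts per allele, as deposited, in which 0.5 is the lowest value and was taken as 0. Tools in the submitters' processing notes are bedtools 2.25.0, HOMER, SAMtools, TopHat2 and Trim Galore 0.4.1, with mm10. The sources used here do not say how strand was used in counting, how alleles were assigned or how classes and site lists were made. Whole counts had been assumed, so values were rounded, 0.5 up for exons and 0.5 down for alleles. The transcript with the highest total stood for each of 24470 symbols.

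Total RNA was tested with TMM factors and the quasi-likelihood test of edgeR 4.0.16 under R 4.3.3, with the 3 groups in the same model and 12910 genes left by filterByExpr. Calls are at a Benjamini-Hochberg adjusted p under 0.05. The mus share was tested in edgeR on mus and cas reads with a term per library. The labels' protocols call the replicates biological without saying whether they were separate cultures, so p-values measure only the spread between these samples, which may be technical. Differences between replicates 1 and 2 correlated between groups over 11384 genes (Pearson 0.658, 0.705 and 0.627), so the numbers may pair the samples. Replicate 1 is always the shallower, so pairing and depth cannot be told apart here. The main fits have no replicate term, and the replicate block is given as an alternative. Header totals were 11.0, 16.4, 10.5, 20.1, 11.6 and 18.7 M. Scripts were tested on simulated data. Alternatives were RLE factors, DESeq2 1.42.0, no filter, the replicate block, the 2 compared groups alone, leaving out each library, other read minimums, other rounding, mus reads alone and other site windows.

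Named genes were those called, the 6 highest mus shares in each group, members with an XiRestored site, the 3 highest of each role list by mean CPM and the 6 deepest with 0 mus reads. Genes of overlapping pairs, Monoallelic genes above 5% and Atp6ap2 were chosen after their values were seen. The members, role lists and markers were chosen with earlier results of these data known. Promoters came from RefSeq (GRCm38.p6), which matched 47 of 59 members. Per-sample accessibility and BRG1 tracks were not used here.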

Additional observations from a re-analysis of the deposited data

Results flagged for a closer look

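For 5 genes the change in line 1 and the change in line 2 differed by the test of line 2 minus line 1 in total RNA (edgeR over 12910 genes, adjusted p under 0.05, 2 libraries a group). The log2 difference was 1.70 for Gpc4 and 0.97 for Hs6st2, whose line 1 libraries lay below WT and line 2. It was -2.25 for Usp11 and -0.55 for Ccdc22, whose line 1 libraries lay above WT and line 2. It was -0.70 for Atp6ap2, where WT lay between the lines. Without line 2 replicate 1 or 2 the Gpc4 call was lost, at 1.51 and 1.86, and the Atp6ap2 and Ccdc22 calls were lost without either of these libraries too.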

How the results depend on the processing

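No setting reversed a call. The count of the 59 genes called in total RNA in line 1 was 4 (14.3% of all genes), but 9 under the replicate block (32.4% of all). By DESeq2 it was 3. When single libraries were left out it moved, and it was lowest without WT replicate 1. Between the lines it was 5 (12.6% of all), but 11 under the replicate block (27.2% of all) and 3 when only the 2 compared groups were fitted. With single libraries left out it was lowest without either line 2 library. Shares over all genes are given for the main fit and the block only, so the other counts are a description. In line 2 the count was 0 in every alternative run. Cas reads between the lines gave 3 calls, and 6 with the replicate block. The mus share gave 0 calls in each contrast in every alternative, the replicate block included, and the replicate block changed no other count by over 1.5 times. Without line 1 replicate 2, Mmgt1 and Sytl5 were called lower in line 1 at -1.08 and -0.998, and Mmgt1 and Elf4 higher in line 2 than in line 1 at 1.03 and 0.59. Leaving out a library leaves that group with 1, assumed to vary like the others. The pooled mus share of all 59 genes was 6.41%, 6.39% and 6.55% for WT, line 1 and line 2. With each gene weighted equally it was 8.19%, 8.01% and 8.29%, and with deposited values unrounded 6.85%, 6.82% and 7.04%, and the order of the groups stayed as it was. The windows of 5 kb and 20 kb gave 34 and 40 genes with a Monoallelic accessible site, beside 36. Depth limits the mus share: the median gene had 43 to 101 allele reads a library, and with 2 libraries a group the spread is itself uncertain. Where a call moved, the cause was not tested.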
